A study of Mus musculus with 12 samples.

Results

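The 9 genes described here write, erase or steer DNA methylation: Tet1, Tet2, Tet3, Dnmt1, Dnmt3a, Dnmt3b, Dnmt3l, Uhrf1 and Tdg. They were chosen by name, as 9 of the 25747 autosomal genes with a start site in the annotation. The choice used no measured value, though earlier results of these data were known. Their members were the CpG cytosines listed in at least 10 of the 12 libraries, in a promoter window that began 1500 bp before each start site and ended 500 bp after it and, separately, in the gene body, from the end of the first window to the end of the gene. This gave 856 of the 1201548 autosomal cytosines listed that often, with 425 in promoter windows and 431 elsewhere in the bodies. DNA methylation was measured by reduced representation bisulfite sequencing (RRBS), in which a CpG-cutting enzyme enriches for CpG-dense fragments, in 2 lines of mouse embryonic fibroblasts (iMEFs). The experimental line was R26M2rtTA/+;TetOcre;Sdhcfl/fl and the control line was R26M2rtTA/+;TetOcre;Sdhcfl/wt, so both carry the Rosa26-driven tetracycline activator, the Cre transgene it switches on, and at least 1 floxed allele of Sdhc, a subunit of succinate dehydrogenase. Both lines received doxycycline at 1 µg/mL and gave 1 library each at day 0 (before treatment) and at days 5, 9, 12, 16 and 20. Each genotype is 1 line, made from embryos of day 13 and immortalised with SV40, so genotype and line cannot be told apart, and every SD below is over time points of a single line. The study asked which methylation differences emerge between the lines as Sdhc is lost. Following its grouping, the control series was all 6 control libraries and the experimental series the 5 experimental libraries from day 5 onwards, while the experimental day 0 library is given as a value of its own. A beta value is the share of reads called methylated at a cytosine, from 0 to 1, averaged over all cells and both alleles of a culture.

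Cytosine methylation in mammals is placed by the DNA methyltransferases and removed either passively at replication or by the TET enzymes. Dnmt3a and Dnmt3b methylate unmethylated CpG sites, Dnmt3l is a catalytically inactive partner that stimulates them in germ cells and the early embryo, and Dnmt1 copies the pattern onto the new strand after replication, recruited by Uhrf1, which binds hemimethylated DNA. Tet1, Tet2 and Tet3 are dioxygenases that need iron and 2-oxoglutarate and oxidise 5-methylcytosine, and the thymine DNA glycosylase Tdg excises the oxidised bases so that base excision repair can restore cytosine. Succinate, which builds up when succinate dehydrogenase is lost, is a known inhibitor of enzymes of the TET kind, and this is given as background only. Bisulfite sequencing of these genes reads the methylation of their DNA and neither their RNA level nor the activity of the proteins, and it does not separate 5-methylcytosine from its hydroxymethyl form.

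The 9 genes have 16 start sites in RefSeq sequences of the build GRCm38.p6 (mm10 in the files), and the windows differ widely in CpG content. From 250 bases before the start to 50 bases after it, the number of CpG dinucleotides per 300 bases ranged from 2 at start 1 of Dnmt1 to 57 at Tet2, against a median of 7 over 32851 promoter sequences. Tet2 has more CpG sites than 99.8% of promoters, Dnmt3a start 1 more than 98.4% and Dnmt3l start 1 more than 43.6%. The following 6 sequences show this range, from a CpG-dense promoter to a pair of CpG-poor starts, and each is written 5′ to 3′ on the strand of the gene with its CpG dinucleotides in capitals. They lie at chr3:133544341-133544640 on the minus strand (Tet2), at chr9:20952574-20952873 and chr9:20959839-20960138 on the minus strand (Dnmt1 starts 3 and 1), at chr17:56304063-56304362 on the plus strand (Uhrf1 start 2), at chr12:3891494-3891793 on the plus strand (Dnmt3a start 3) and at chr10:78042037-78042336 on the plus strand (Dnmt3l start 1).
Tet2: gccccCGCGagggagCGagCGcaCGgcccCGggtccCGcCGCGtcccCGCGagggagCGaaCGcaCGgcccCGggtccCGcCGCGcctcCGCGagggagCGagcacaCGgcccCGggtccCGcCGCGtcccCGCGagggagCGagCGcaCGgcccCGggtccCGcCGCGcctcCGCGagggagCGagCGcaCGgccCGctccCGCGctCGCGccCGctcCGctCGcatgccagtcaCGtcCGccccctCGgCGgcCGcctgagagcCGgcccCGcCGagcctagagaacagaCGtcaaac
Dnmt1 start 3: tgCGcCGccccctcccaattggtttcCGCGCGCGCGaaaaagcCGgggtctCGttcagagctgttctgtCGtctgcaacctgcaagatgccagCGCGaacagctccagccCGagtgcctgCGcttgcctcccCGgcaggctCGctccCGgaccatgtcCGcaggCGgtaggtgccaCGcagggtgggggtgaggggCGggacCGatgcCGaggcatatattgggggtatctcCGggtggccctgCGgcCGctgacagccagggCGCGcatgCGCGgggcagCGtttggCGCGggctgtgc
Uhrf1 start 2: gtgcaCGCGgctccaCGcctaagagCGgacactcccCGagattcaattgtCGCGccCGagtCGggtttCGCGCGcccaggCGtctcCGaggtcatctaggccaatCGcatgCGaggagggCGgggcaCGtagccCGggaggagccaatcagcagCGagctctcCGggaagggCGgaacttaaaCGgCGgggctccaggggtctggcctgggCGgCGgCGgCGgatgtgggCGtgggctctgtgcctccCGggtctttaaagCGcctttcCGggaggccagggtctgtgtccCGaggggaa
Dnmt3a start 3: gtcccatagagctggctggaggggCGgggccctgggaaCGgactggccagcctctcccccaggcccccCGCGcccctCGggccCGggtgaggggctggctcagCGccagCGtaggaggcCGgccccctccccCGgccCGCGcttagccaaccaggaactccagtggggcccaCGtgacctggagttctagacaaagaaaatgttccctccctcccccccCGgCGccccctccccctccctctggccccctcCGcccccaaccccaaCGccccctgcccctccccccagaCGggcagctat
Dnmt3l start 1: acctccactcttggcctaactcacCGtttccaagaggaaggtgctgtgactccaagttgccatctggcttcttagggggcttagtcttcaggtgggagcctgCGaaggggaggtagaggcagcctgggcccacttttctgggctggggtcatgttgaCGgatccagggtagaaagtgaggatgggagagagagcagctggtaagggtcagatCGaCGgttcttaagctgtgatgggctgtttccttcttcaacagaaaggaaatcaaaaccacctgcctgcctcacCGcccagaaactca
Dnmt1 start 1: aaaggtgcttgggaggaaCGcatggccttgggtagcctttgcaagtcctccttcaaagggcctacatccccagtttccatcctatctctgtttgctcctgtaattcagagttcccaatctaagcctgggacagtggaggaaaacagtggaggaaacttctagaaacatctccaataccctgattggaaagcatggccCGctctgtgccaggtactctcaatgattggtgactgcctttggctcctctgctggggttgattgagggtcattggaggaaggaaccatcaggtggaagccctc
In the first 3 of these the listed cytosines were almost free of methylation. The mean beta value over the 12 libraries was 0.000803 for 24 cytosines within the Tet2 sequence, 0.00137 for 26 within that of Dnmt1 start 3 and 0.00343 for 24 within that of Uhrf1 start 2. The Dnmt3a start 3 sequence, which holds 18 CpG sites, had a mean of 0.485 over its 10 listed cytosines. None of the cytosines of the Dnmt3l start 1 and Dnmt1 start 1 sequences was listed in 10 libraries. Letters of known motifs were searched on both strands of these 300-base windows. The NRF1 motif, 10 letters that begin and end with GCGC in the form found here, GCGCATGCGC, stood at 14 bp after Dnmt1 start 3 with 3 listed cytosines, all at 0, and 4.6% of all promoters hold an NRF1 motif with any base as the fifth letter. An E2F motif (TTTCGCGC or TTTGGCGC, 0.813% of all promoters) stood at -219 and 33 bp from Dnmt1 start 3, as the complement GCGCGAAA in the first case, and at -185 bp from Uhrf1 start 2. The GC box GGGCGG, which 35.7% of promoters hold, was found in 12 of the 16 sequences.

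The 12 libraries listed between 932307 (control day 12) and 1716381 cytosines (control day 5), and this number is the only measure of their size, since the values carry no read counts. The share of values at exactly 0 or 100 percent, which rises as fewer reads cover a cytosine, lay between 61.6% (experimental day 16) and 86.9% (control day 12). The 9 genes had 99 pairs of neighbouring listed positions. Such a pair is the 2 strands of 1 CpG or, where 2 CpG sites adjoin, 1 position of each, and these were not separated. The mean absolute difference within a pair lay between 0.0384 (control day 9) and 0.0922 (control day 0) per library. The median was 0 in every library, while the largest difference within a pair lay between 0.467 (experimental day 5) and 1 (control day 12 among others). Most pairs thus had equal values, and at single pairs adjacent positions in a library differed by far more than the mean. The mean of a region covers only the cytosines a library lists, and the control day 12 and experimental day 20 libraries listed the fewest in most promoter windows. In control day 12, 2 of the 62 cytosines of the Dnmt3b window and none of the 4 of the Dnmt3l start 1 window were listed.

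**Figure D1:**
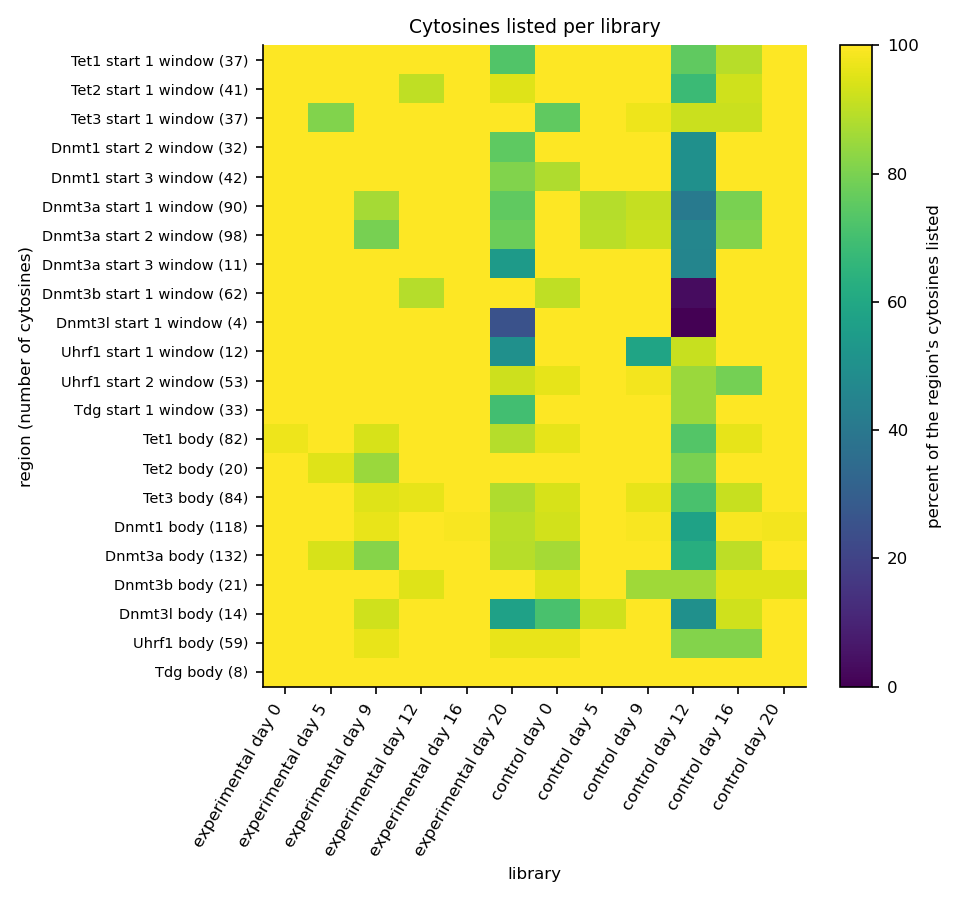
Percent of cytosines listed in each library (colour scale from 0 to 100) for the regions with 3 or more cytosines, with regions as rows, their number of cytosines in brackets, and libraries as columns. The 2 darkest cells are the Dnmt3b window (2 of 62) and the Dnmt3l start 1 window (0 of 4) in control day 12.

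Most promoter windows of these genes were unmethylated in both lines. Of 16 windows, 15 held at least 1 cytosine and 13 held the 3 needed for a test, and 10 of these 13 (76.9%) had a mean beta value under 0.1, against 64.9% of all 15287 promoters tested. The median over the 13 windows was 0.0152, against 0.0319 over all promoters. The windows of Dnmt1 starts 2 and 3, of Dnmt3a starts 1 and 2 and of Uhrf1 starts 1 and 2 overlap, so the 13 are not independent. None of the 13 differed between the lines at an adjusted p under 0.05 by limma, where 2.01% of all promoters did, and 3 of 13 had an unadjusted p under 0.05, where 16.7% of all promoters did. Adjusted p-values from limma ran from 0.136 (Dnmt3l start 1) to 0.929 (Dnmt3a start 1). The experimental and control series did not overlap at 2 of 13 windows, Dnmt3l start 1 and Tdg, against 4.36% of all promoters. Differences in mean beta value, experimental minus control, ran from -0.489 to 0.119 with a median of 0.000969, against 0.00237 over all promoters.

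**Figure D2:**
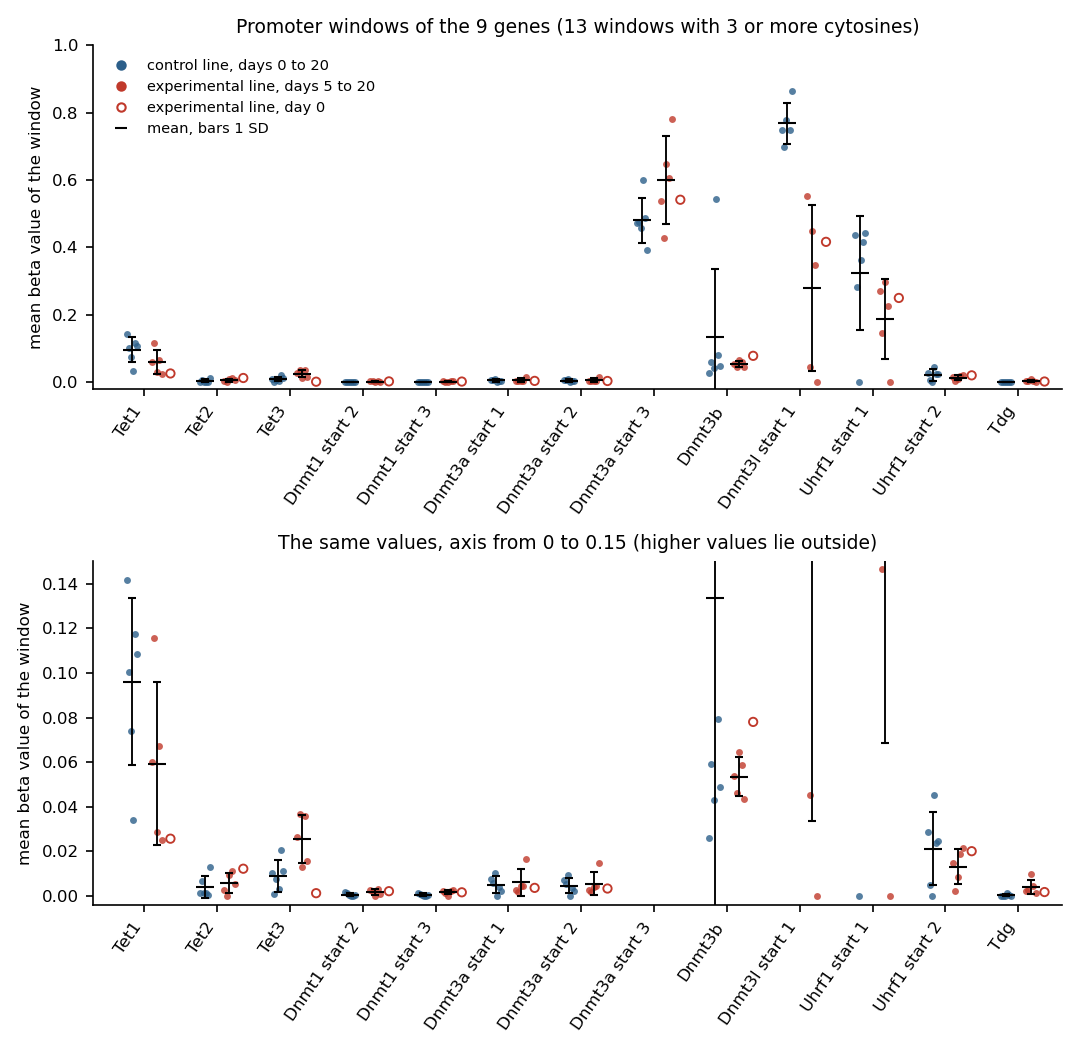
Mean beta value of the 13 promoter windows with 3 or more cytosines, with each library as a point (blue for control, red for experimental days 5 to 20, open red for experimental day 0) and the mean with bars of 1 SD over the libraries of a series; the lower plot repeats the values on an axis from 0 to 0.15. Most windows lie near 0 in both lines, and Dnmt3a start 3, Dnmt3l start 1 and Uhrf1 start 1 lie higher.

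Among the erasers, Tet1 (start at chr10:62887324, minus strand) had the most methylated promoter. Its 37 cytosines averaged 0.0602, 0.116, 0.0289, 0.0670 and 0.0249 on days 5, 9, 12, 16 and 20 in the experimental line, 0.0257 at day 0 there, and 0.0340 to 0.142 in the control line with a median of 0.105. The control values were higher at 4 of the 5 shared later days, and the ranges overlapped. The means were 0.0593 ± 0.0366 (SD, n = 5) and 0.0960 ± 0.0375 (SD, n = 6), with a difference of -0.0367 (95% interval -0.0850 to 0.0116 by limma on beta values) and an adjusted p of 0.428 from limma on M-values. The 17 cytosines of this window with a mean over 0.05 lay between -181 and 376 bp, and single values there reached 1. At 49 and 39 bp downstream of the Tet1 start, control day 16 was at 1 while 4 of the 5 experimental libraries of days 5 to 20 were at 0. That control value is of 1 library, and 0 of the 33 tested cytosines of this window had an unadjusted p under 0.05 by limma.

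Tet2 (chr3:133544390, minus strand) was close to 0 in every library. Its 41 cytosines averaged between 0 and 0.0110 in the 5 experimental libraries and between 0.000241 and 0.0128 in the control libraries with a median of 0.00142. The means of 0.00571 ± 0.00458 (SD, n = 5) and 0.00395 ± 0.00492 (SD, n = 6) differed by 0.00176, with a 95% interval of -0.00521 to 0.00874 and an adjusted p of 0.775 by limma. At 28 of the 41 cytosines all libraries had the same value.

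The Tet3 promoter (chr6:83441678, minus strand) was low in both lines, and higher in the experimental line at each of the 5 shared later days. Over 37 cytosines its mean was 0.0263, 0.0368, 0.0132, 0.0357 and 0.0157 on days 5 to 20 in the experimental line, 0.00123 at day 0 there, and 0.00104 to 0.0208 in the control line with a median of 0.0089. The experimental day 0 value lay within the control range, and the later experimental values overlapped it at days 12 and 20. The means were 0.0255 ± 0.0110 (SD, n = 5) and 0.00894 ± 0.00703 (SD, n = 6), which is 0.95 ± 0.31 (SE) on the M-value scale, with an unadjusted p of 0.0101 and an adjusted p of 0.147 from limma. The difference of 0.0166 had a 95% interval of 0.00449 to 0.0287. On the M-value scale it was 0.591 over the cytosines listed in all 12 libraries (adjusted p = 0.433 from limma). With the median over cytosines it was 0. The difference was uneven along the window. The cytosine 306 bp downstream was at 1 in experimental days 9 and 16 and at 0 in the other libraries that listed it, and the one 307 bp downstream was at 0.143, 0.325, 0.2, 0.0597 and 0 in the experimental series and at 0 to 0.136 in the control series.

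Tdg (chr10:82629838, plus strand) was the least methylated of the single-start genes. Its 33 cytosines averaged 0.00217, 0.00276, 0.00962, 0.00434 and 0.00136 in the experimental line on days 5 to 20, 0.00173 at day 0 there, and 0 to 0.00128 in the control line, where 4 of 6 libraries were at 0. The series did not overlap, but the difference was 0.00375, with a 95% interval of -0.000564 to 0.00806, and the adjusted p was 0.217 (unadjusted 0.0241) from limma. At 25 of the 33 cytosines every library had the same value.

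Dnmt1 has 3 annotated starts on the minus strand of chromosome 9. The windows of start 2 (chr9:20952979) and start 3 (chr9:20952623) overlap and share 1 CpG-dense stretch, and their means were at or below 0.00304 in all 12 libraries. At start 3, 42 cytosines averaged 0.00172 ± 0.00107 (SD, n = 5) in the experimental line and 0.000507 ± 0.000599 (SD, n = 6) in the control line, with an adjusted p of 0.568 from limma. Start 1 (chr9:20959888), several kilobases upstream, stood at the other end of the scale. Only 2 cytosines of its window were listed, at -1199 and -1219 bp, and both were at 1 in 8 of the 10 libraries that listed them. The lowest window value was 0.688, at control day 5. It holds too few cytosines for the test.

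At Dnmt3a (plus strand of chromosome 12), starts 1 and 2 (chr12:3806980 and chr12:3807160) share most of 1 CpG-dense window, and start 3 (chr12:3891744) lies far inside the gene. The window of start 1, with 90 cytosines, averaged 0.00603 ± 0.00599 (SD, n = 5) in the experimental line and 0.00507 ± 0.00368 (SD, n = 6) in the control line, with an adjusted p of 0.929 from limma. The internal start was partly methylated in every library. Its 11 cytosines averaged 0.537, 0.428, 0.648, 0.606 and 0.782 on days 5 to 20 in the experimental line, 0.542 at day 0 there, and 0.394 to 0.600 in the control line with a median of 0.474. The experimental value was higher at 4 of 5 shared later days, and the ranges overlapped. The difference was 0.119 (95% interval -0.0120 to 0.250), with an adjusted p of 0.344 from limma. Experimental day 20 listed 6 of the 11 cytosines and control day 12 listed 5, and these were the highest value of each series. An E-box, CACGTG, which 7.15% of promoters hold, stood at -80 bp of this start, and its 2 listed cytosines had a mean beta value of 0.733.

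The Dnmt3b window (chr2:153649449, plus strand) was low, apart from 4 cytosines between -1475 and -1402 bp. Its 62 cytosines averaged 0.0540, 0.0463, 0.0647, 0.0587 and 0.0436 in the experimental line on days 5 to 20, 0.0781 at day 0 there, and 0.0261 to 0.543 in the control line with a median of 0.0541. The highest control value, on day 12, rests on 2 cytosines at -1435 and -1402 bp, which were at 0.478 and 0.609 there. The difference of -0.0799 (adjusted p = 0.726 from limma) turned to the opposite direction with that library set to missing, at 0.10 in place of -0.61 on the M-value scale (adjusted p = 0.868 from limma). The cytosine at -1435 bp had the smallest p of the gene. It was at 0.667, 1, 1, 0.875 and 0.706 in the experimental series, 0.72 at day 0 there, and 0.267 to 0.6 in the 5 control libraries that listed it, with an adjusted p of 0.26 from limma.

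Dnmt3l had the largest difference of the 13 windows. Start 1 (chr10:78042287, plus strand) had 4 listed cytosines, and their mean was 0.554, 0.0455, 0.450, 0.349 and 0 on days 5, 9, 12, 16 and 20 in the experimental line and 0.417 at day 0 there. In the control line it was 0.699 to 0.865 with a median of 0.750 over 5 libraries. All experimental libraries, day 0 included, lay below the lowest control library. The means were 0.280 ± 0.246 (SD, n = 5) and 0.768 ± 0.0610 (SD, n = 5), a difference of -0.489 with a 95% interval of -0.735 to -0.243. On the M-value scale the difference was -4.06 ± 1.23 (SE), with an unadjusted p of 0.00828 and an adjusted p of 0.136 from limma, so it did not pass the threshold over all promoters. The value of 0 at experimental day 20 rests on 1 of the 4 cytosines, and with libraries that list under 50% of the cytosines of a region set to missing the difference was -2.97 on the M-value scale, with an adjusted p of 0.110 from limma. The difference of -0.333 at day 0 was there before doxycycline. The window at start 2 (chr10:78049842) held 1 cytosine, which went from 0 to 1 in both lines, and that at start 3 (chr10:78055335) held none.

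The 4 cytosines of the Dnmt3l start 1 window behaved in 2 ways. The one 183 bp downstream was at 0 to 0.394 in the experimental series and at 0 to 0.722 in the control series. The ones 328, 330 and 365 bp downstream were high in the control line, at 0.857 to 1 in the 5 libraries that listed them. At 330 bp the experimental values were 0.588, 0.0909, 0.571 and 0.235 on days 5, 9, 12 and 16 and 0.667 at day 0, and the control values were 0.857 to 1. The M-value difference there was -6.15 ± 1.24 (SE), with an unadjusted p of 0.00102 and an adjusted p of 0.107 from limma. At 365 bp the experimental values were 0.588, 0, 0.357 and 0.471, and 0.333 at day 0. These 3 cytosines lie within 40 bp of each other and can share reads, so they are not separate evidence.

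Uhrf1 has 2 annotated starts on the plus strand of chromosome 17, and their windows overlap. The window of start 2 (chr17:56304313), with 53 cytosines, was at 0.0131 ± 0.00800 (SD, n = 5) in the experimental line and 0.0213 ± 0.0165 (SD, n = 6) in the control line, with an adjusted p of 0.778 from limma. That of start 1 (chr17:56303337) had 12 cytosines with means of 0.271, 0.147, 0.296, 0.226 and 0 in the experimental line, 0.250 at day 0 there, and 0 to 0.443 in the control line with a median of 0.390. The values of 0 belong to experimental day 20 and control day 9, which did not list the methylated cytosines from -566 to -520 bp, except that control day 9 listed the one at -520 bp at 0. With all libraries the difference was -0.136, with a 95% interval of -0.330 to 0.0581 and an adjusted p of 0.733 from limma. On the M-value scale it was -1.04, and it was -0.0494 without experimental day 20 and -2.04 without control day 9.

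**Figure D3:**
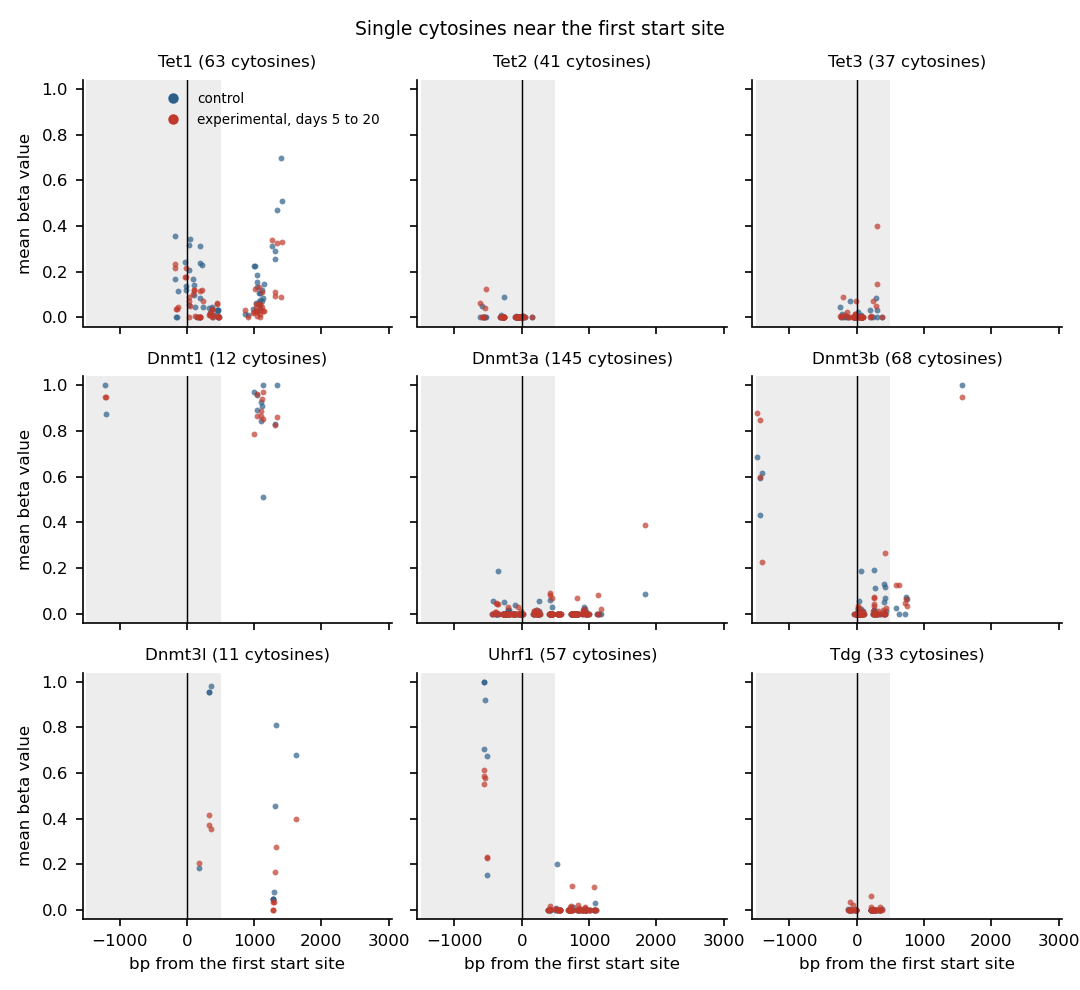
Mean beta value of each listed cytosine by its distance from the first start of each gene (x axis in bp, starting 1500 bp before it and ending 3000 bp after it; y axis from 0 to 1; blue for the control series, red for experimental days 5 to 20; grey marks the promoter window). Most cytosines near the starts of Tet2, Tet3, Dnmt3a and Tdg lie near 0 in both lines, while most of those upstream of Uhrf1 start 1 and the 3 at 328 to 365 bp of Dnmt3l start 1 lie higher in the control line.

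Gene bodies were far more methylated than promoters, and the series of the lines overlapped at each of the 9 genes. The median body value was 0.573, against 0.678 over 15315 bodies, and 3 of 9 (33.3%) were over 0.8, against 32.1% of all bodies. None of the 9 had an adjusted p under 0.05 by limma, where 2.03% of all bodies did, and 1 of 9 had an unadjusted p under 0.05, where 16.9% did. Of all bodies, 5.14% had series that did not overlap. In the control line the order from high to low was Tdg (0.964 ± 0.0267), Tet3 (0.902 ± 0.0143), Tet2 (0.878 ± 0.0505), Dnmt3b (0.656 ± 0.0389), Dnmt3l (0.576 ± 0.140), Dnmt1 (0.575 ± 0.0161), Tet1 (0.562 ± 0.0330), Dnmt3a (0.470 ± 0.0127) and Uhrf1 (0.230 ± 0.0245), each as mean ± SD over 6 libraries. Tet3 and Tet2 overlapped, as did Dnmt3b, Dnmt3l, Dnmt1 and Tet1, whereas the ranges of Tdg and Tet3, of Tet2 and Dnmt3b, and of Dnmt3a and Uhrf1 did not overlap between neighbours in this order. Beyond neighbours, Tet2 also overlapped Tdg and Dnmt3l, and Dnmt3a overlapped Dnmt3l and not Tet1.

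**Figure D4:**
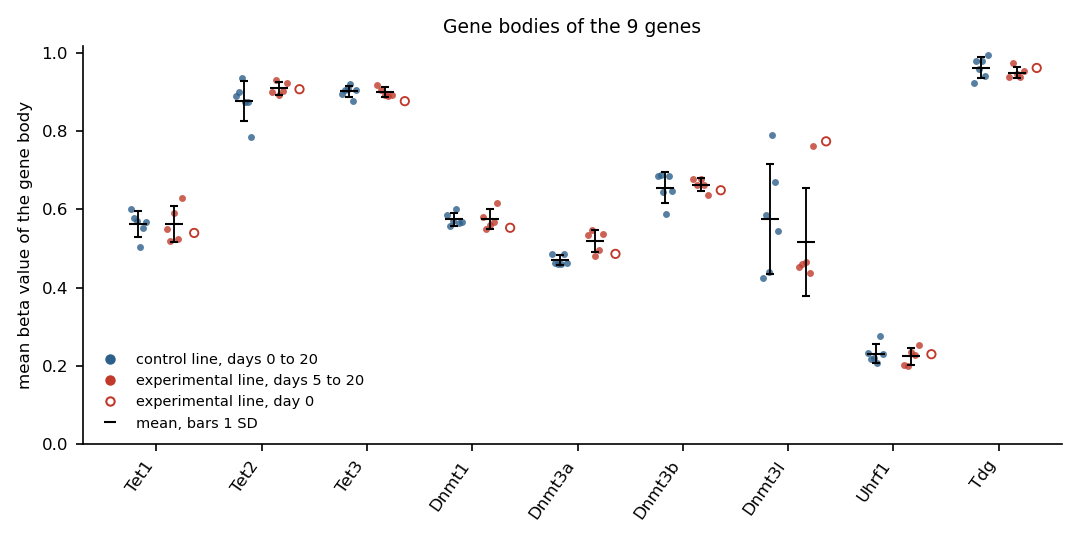
Mean beta value of the 9 gene bodies, with each library as a point (blue for control, red for experimental days 5 to 20, open red for experimental day 0) and the mean with bars of 1 SD over the libraries of a series. The series overlap at all 9 genes, and at Dnmt3a the experimental values of days 5 to 20 are on average 0.0493 higher.

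The low body values came from stretches near start sites. Of the 59 body cytosines of Uhrf1, 45 lie in the window of start 2 and average 0.00553, and the other 14 average 0.935. At Dnmt1, 42 of 118 lie in the windows of starts 2 and 3 and average 0.00108, and the other 76 average 0.878. At Dnmt3a, the 47 body cytosines outside the promoter windows with a mean under 0.2 all lie between 730 and 1824 bp downstream of start 1, so the unmethylated stretch runs on beyond the promoter window. At Tet1, 21 of the 24 body cytosines with a mean under 0.2 lie within 2000 bp of the start. Tet2, Tet3 and Tdg had no body cytosine under 0.2, and their bodies had 17 of 20, 75 of 84 and 8 of 8 cytosines over 0.8.

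Dnmt3a was the 1 body with an unadjusted p under 0.05. Its 132 cytosines averaged 0.534, 0.548, 0.482, 0.496 and 0.536 in the experimental line on days 5 to 20, 0.486 at day 0 there, and 0.460 to 0.487 in the control line with a median of 0.463. The experimental value was higher at all 5 shared later days, and the lowest, at day 12, overlapped the control range. The difference was 0.0493, with a 95% interval of 0.0167 to 0.0819, an unadjusted p of 0.0353 and an adjusted p of 0.253 from limma. On the M-value scale it was 0.28, against 0.0981 (adjusted p = 0.611) over the cytosines listed in all 12 libraries. Outside the windows of further starts the means were 0.521 and 0.495. These were averaged over the libraries of a series at each cytosine first, so they cannot be set directly against the 0.0493. The intervals of the other bodies all held 0. They ran from -0.0324 to 0.0325 at Dnmt1, from -0.0277 to 0.0232 at Tet3 and from -0.0517 to 0.0533 at Tet1, and were widest at Dnmt3l (-0.233 to 0.113), where 14 cytosines were listed and 8 of them at experimental day 20.

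At single cytosines, 563 of the 856 varied among the libraries and could be tested. Of these, 2 had an adjusted p under 0.05 by limma over 934971 cytosines, where 0.477% of all cytosines did, and 45 (7.99%) had an unadjusted p under 0.05, where 10.6% did. Of the 45, 19 were higher in the experimental series and 26 lower. At 65 of the 856 the series means differed by more than 0.2, with 48 of them in bodies outside the promoter windows. At 127 the day 0 libraries differed by as much. That count sets a single library against another, while the first compares means over several libraries. The counts therefore cannot be compared with each other, and neither was set against all cytosines.

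Both called cytosines lie upstream of Uhrf1 start 1, at chr17:56302773 (-564 bp) and chr17:56302775 (-562 bp). Each was at 1 in all 5 control libraries that listed it, days 0, 5, 12, 16 and 20. At -564 bp the experimental values were 0.714, 0.375, 0.667 and 0.444 on days 5, 9, 12 and 16, and the day 0 value was 1. At -562 bp they were 0.714, 0.625, 0.667 and 0.444, and the day 0 value was 0. All later experimental libraries that listed them were thus below all control libraries, while day 0 gave opposite extremes at neighbouring CpG sites. The M-value differences were -6.35 ± 0.52 (SE) with an adjusted p of 0.00229 and -5.99 ± 0.44 (SE) with an adjusted p of 0.00147 from limma. With the experimental day 0 library included, the first had an adjusted p of 0.114 and the second of 0.0426. With the day as a block neither was called (adjusted p = 0.244 for both from limma). The values of both cytosines were identical on days 5, 12 and 16, and as they are 2 bp apart they can rest on the same reads. Neither experimental day 20 nor control day 9 listed them, and control values that do not vary at all make the residual spread behind this test small.

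**Figure D5:**
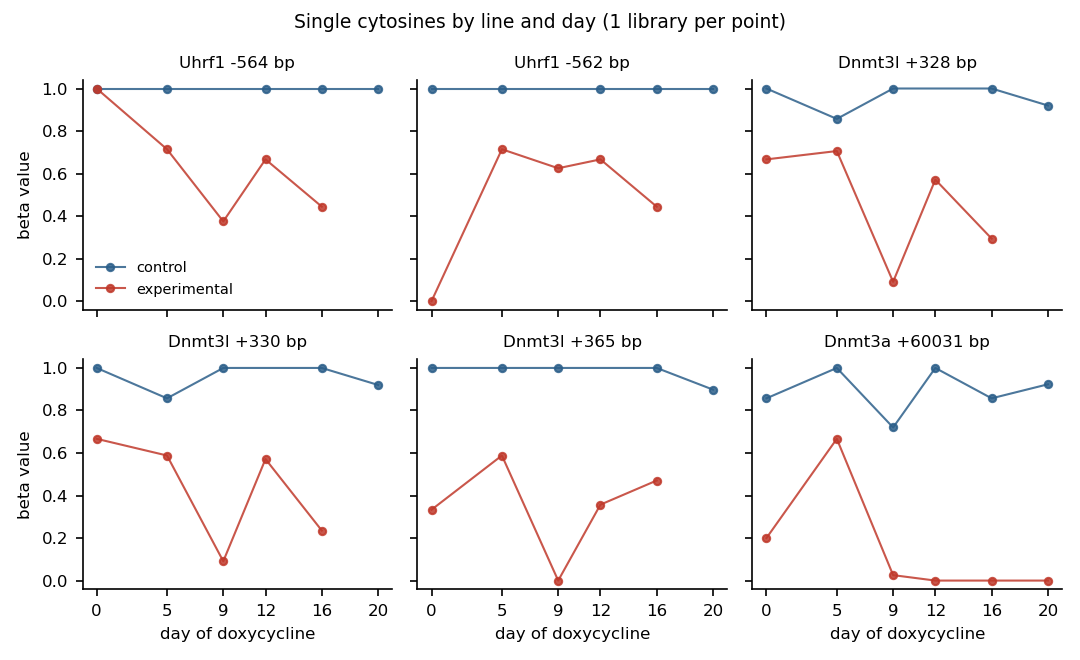
Beta value by day of doxycycline (x axis, days 0 to 20) for 6 cytosines, with control in blue and experimental in red, 1 library per point and gaps where a library did not list the cytosine; the number in each title is the distance in bp from the first start of the gene. Both Uhrf1 cytosines are at 1 in the control line, and at the 3 of Dnmt3l and at that of Dnmt3a the experimental line is lower at each day listed in both, day 0 included.

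The other members had no called cytosine, and that with the smallest p is given for each. In the Dnmt3a body, chr12:3867011 (60031 bp downstream) was at 0.667, 0.0256, 0, 0 and 0 in the experimental series, at 0.2 at day 0 there, and at 0.72 to 1 in the control series with a median of 0.890. The series did not overlap, and the adjusted p was 0.0548 from limma. Without experimental day 5 it was 0.00835. In the Tet1 body, chr10:62866309 (21015 bp downstream) stood at 1 on each of the 5 later days in the experimental line and at 0 in 4 of 5 control libraries, but the day 0 libraries were the other way round, with 0 in the experimental and 1 in the control line. Its adjusted p from limma was 0.138, and 5.33e-06 without control day 0.

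In the Tet3 body, chr6:83421079 (20599 bp downstream) was at 0.793, 0.625, 0.682, 0.591 and 0.643 in the experimental series, at 0.429 at day 0 there, and at 0.783 to 1 in the control series with a median of 1. Its adjusted p was 0.113 from limma, and 0.0171 without control day 5. In the Dnmt1 body, chr9:20921772 (38116 bp downstream) was at 0.467, 0.0952, 0, 0.727 and 0.714 in the experimental series and at 1 in 5 of 6 control libraries, with 0.5 at day 20 and an adjusted p of 0.151 from limma. At day 0 both cytosines were already lower in the experimental line, by 0.494 at Tet3 and 0.7 at Dnmt1. At Tdg (chr10:82629733, -105 bp) the experimental values were 0, 0.0909, 0.0435, 0.05 and 0 and every control library was at 0 (adjusted p = 0.385 from limma). At Tet2 (chr3:133544922, -532 bp) they were 0.118, 0, 0.333, 0.167 and 0 and the 4 control libraries that listed it were at 0 (adjusted p = 0.502 from limma).

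The change after day 0 was then compared between the lines, with the experimental day 0 library as its own baseline. None of the 13 promoter windows passed an adjusted p of 0.05 by limma, where 0.184% of 15218 promoters did, and none of the 9 bodies did, where 0.105% of 15283 bodies did. Without adjustment, 1 of 13 windows and 0 of 9 bodies had a p under 0.05, where 5.66% of all promoters and 4.57% of all bodies did. The window was that of Tet3, where the mean of the later days lay 0.0243 above day 0 in the experimental line and -0.00152 from it in the control line, a difference of 1.85 ± 0.81 (SE) on the M-value scale (unadjusted p = 0.0472, adjusted p = 0.866 from limma). Among bodies the smallest p was that of Dnmt3l (unadjusted p = 0.0531, adjusted p = 1 from limma), with -0.259 in the experimental line and 0.183 in the control line. At 4 of its 14 cytosines, between 1280 and 1290 bp downstream, and at the ones 1316 and 1328 bp downstream, experimental day 0 was at 1 in 5 of 6 cases, while the later experimental days were at 0 to 0.6. At experimental day 20 the Dnmt3l body was at 0.763, close to its day 0 value of 0.775. Experimental day 0 listed all 14 cytosines, control day 0 listed 10 and experimental day 20 listed 8, so these means rest on different cytosines. Each baseline is 1 library.

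The other genes of the pathway that could be tested, from 4 lists of 45 genes, had no called region either by limma on M-values, where 2.01% of all promoters and 2.03% of all bodies were called. In the order below, 10 of 13, 5 of 7, 10 of 15 and 6 of 10 genes had an autosomal start site in the annotation, and the others were not examined. Of the genes of active demethylation and base excision repair, 10 promoters and 9 bodies were tested, and 0 were called, with median differences of 0.00170 and 0.0242. Of the readers of methylated DNA, 6 promoters and 5 bodies were tested, with 0 called. Of the partners in maintenance and targeting, 9 promoters and 7 bodies were tested, with 0 called. Of the genes that supply the methyl donor and 2-oxoglutarate, 7 promoters and 5 bodies were tested, with 0 called, and all 7 promoters had a higher mean in the experimental line, by 0.00123 to 0.0103, where 62.6% of all promoters did and the median difference over all was 0.00237. The largest differences were -0.152 in the body of Dmap1, a partner of Dnmt1 (adjusted p = 0.0703), 0.134 in that of Neil1, a DNA glycosylase (adjusted p = 0.144), 0.101 at the promoter of Uhrf2, a relative of Uhrf1 (adjusted p = 0.0833, and 0.0434 by limma on beta values), and 0.0838 in the body of Smug1, a uracil glycosylase (adjusted p = 0.135), all from limma. Before doxycycline, at day 0, the differences in these regions were -0.0719 at Dmap1, 0.00254 at Neil1, 0.101 at Uhrf2 and 0.0742 at Smug1.

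The label of the cells was read only through promoter methylation, which does not give expression. Of the 10 fibroblast markers, 6 had a start site in the annotation and 3 promoters were tested. Vim, an intermediate filament gene of mesenchymal cells, was at 0.00730 in the experimental and 0.00157 in the control line, while Col1a2 was at 0.740 and 0.794 and Twist2 at 0.126 and 0.145. Of the 5 fibroblast marker bodies tested, 2 were higher in the experimental line and 3 lower. Of the markers of other cells, 4 promoters were tested with a median of 0.501. All 4, from 3 genes, were lower in the experimental line, as were 5648 of all 15287 promoters. The differences were -0.176 at Sox2 (adjusted p = 0.105 from limma), -0.156 at Pou5f1 start 1 (adjusted p = 0.237 from limma), -0.0703 at its start 2 and -0.0166 at Krt18. Before doxycycline, at day 0, these differences were -0.159, -0.1785, 0.0611 and -0.0667 in the same order. Of the 6 bodies of these markers tested, 4 were higher and 2 lower, with the largest difference at Ptprc, the leukocyte antigen CD45, at 0.202 (adjusted p = 0.0819 from limma). Over all bodies, 58.3% were higher in the experimental line. At day 0 the Ptprc difference was 0.467. Whether these marker differences have a part in the results above was not tested. RRBS does not read the deletion of Sdhc, so the labels of the libraries were not checked by it.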

How the data were processed

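RRBS libraries of 2 iMEF lines (12 libraries) were analysed from the deposited percent values. Per the labels and methods, the authors ran Bismark on mm10 and deposited methylation per CpG cytosine as a percent of its reads. Read counts were not used here, so the depth per cytosine is unknown, no coverage minimum was set, and the precision of a single value cannot be given. Beta values are these percents divided by 100.

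Cytosines on the 19 autosomes listed in at least 10 of 12 libraries were used. Start sites, strands and sequences came from RefSeq sequences of GRCm38.p6, which cover 25747 of 47038 autosomal genes, and all 199 listed cytosines inside the members' sequences lay on a CpG. Exon boundaries of this build were not used here. Regions needed 3 cytosines and took their mean. M-values, log2((beta + 0.01) / (1 - beta + 0.01)), were tested with limma 3.58.1 in R 4.3.3, two-sided, over all regions or cytosines. Adjusted p-values are Benjamini-Hochberg, with 0.05 as the threshold. Intervals came from limma on beta values. The change after day 0 was fitted over 4 groups of all 12 libraries, each lone day 0 library being assumed to vary like the others. The code was tested on simulated data.

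All 9 members are named. A single cytosine is named where it passed the threshold and lay on 1 side of the control mean at each later day that listed it, up to 2 per gene, or else has the smallest p of its gene. The Dnmt3l cytosines beside the named one, including those of its body, those at 306 and 307 bp of Tet3 and those near the Tet1 start were chosen after their values were seen. The members and lists were chosen with earlier results of these data known. Between libraries r was 0.737 to 0.922 over cytosines, and in no pair were more than 0.725% of the values between 0 and 1 identical.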

Additional observations from a re-analysis of the deposited data

Results flagged for a closer look

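Dixon's test was applied to 64 series of 4 to 6 libraries, over the members' regions and named cytosines. In 10 of them, 1 library stood apart from the others. The test flags about 1 in 20 by chance where values are normally distributed and series are independent. Here many values are equal and lie at an end of the beta scale, and some regions share cytosines. The named cytosines were also chosen by their p. The 10 therefore cannot be set against that rate.

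Among regions, the Dnmt3b window stood at 0.543 in control day 12, where 2 of 62 cytosines were listed. The Uhrf1 start 1 window stood at 0 in control day 9, which listed 7 of 12 cytosines. The Dnmt3a windows of starts 1 and 2 stood at 0.0165 and 0.0148 in experimental day 20, which listed 68 of 90 and 76 of 98 cytosines and whose other days lay under 0.005. The Dnmt3l body stood at 0.763 in experimental day 20, with 8 of 14 cytosines listed. The Uhrf1 body stood at 0.277 in control day 16, with 48 of 59 listed. The part of the missing cytosines in these values was not tested apart from the setting that leaves out libraries with under 50% of a region listed, which removed the Dnmt3b value and none of the others.

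Among cytosines, that of the Tet1 body stood at 1 in control day 0 against 0 in the other control libraries, that of Tet3 at 0.783 in control day 5, that of Dnmt1 at 0.5 in control day 20 and that of Dnmt3a at 0.667 in experimental day 5.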

How the results depend on the processing

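No promoter window or body of the 9 genes was called under any alternative run, and the counts over all genes moved more. Differences below are on the M-value scale, experimental minus control. Promoters called (307) came to 181 without control day 0, 517 with experimental day 0 and 37 with the median over cytosines. Bodies called (311) came to 476 with an offset of 0.1, 527 on beta values, 583 with cytosines listed in all 12 libraries, 201 without control day 0, 592 with experimental day 0 and 9 with the median. Cytosines called (4462) came to 6818 with an offset of 0.1 and 6925 on beta values. Members' cytosines called (2) came to 4, 5 and 1 with that offset, on beta values and when listed in all 12, where the 1 is that of Dnmt3a, as neither Uhrf1 cytosine is listed in all 12. The additions were the named cytosines of Dnmt3a and Tet3, and the fifth was chr10:62885927 in the Tet1 body. With experimental day 0 they were 3, the named one of Dnmt3a (adjusted p = 0.0271), that at 365 bp of Dnmt3l (0.0390) and that at -562 bp of Uhrf1. The change after day 0 was called at 28 promoters and 16 bodies, and at 47 and 6 with an offset of 0.1, at 70 promoters on beta values, at 4 bodies when listed in all 12 and at 0 of either by slope per day.

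Leaving out 1 library at a time, the counts called ran from 114 to 386 promoters, 133 to 455 bodies, 2 to 4 member cytosines, and for the change 12 to 34 promoters and 2 to 46 bodies, with the fewest promoters without experimental day 5 (114), the fewest bodies without control day 20 (133), and the most of each, and of changed bodies, without control day 12. Each library but control day 12 lowered both counts over all genes by more than 1.5 times. Both Uhrf1 cytosines were called in each of these fits. Small differences changed sign there, with ranges of -0.139 to 0.159 at Dnmt3a start 1, -0.124 to 0.152 at start 2 and -0.900 to 0.103 at Dnmt3b, and in bodies of -0.0599 to 0.0377 at Dnmt1, -0.0411 to 0.0841 at Dnmt3b, -0.0895 to 0.0699 at Tet1, -0.108 to 0.0194 at Tet3 and -0.111 to 0.0185 at Uhrf1.

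The other reversals were of uncalled differences too. With libraries listing under 50% of a region set to missing, they were -0.0488 and -0.0415 at Dnmt3a starts 1 and 2 and 0.103 at Dnmt3b. With cytosines listed in all 12 libraries, the windows of Tet2, Uhrf1 start 1 and start 2 were at -0.101, 0.417 and 0.532, and the bodies of Dnmt1, Tet1, Tet2, Tet3 and Uhrf1 at -0.00997, -0.108, -0.00433, 0.229 and 0.0511. With windows from 500 bp upstream, Tet2 was at -0.300, Uhrf1 start 1 at 0.418 and start 2 at 0.148. With medians, Dnmt3a start 3 was at -0.0704, Uhrf1 start 1 at 0.244, and the bodies of Dnmt1, Dnmt3b and Tet3 at -1.02, -1.59 and 0.329. Over whole genes, Dnmt3b was at -0.407, Tdg at 0.169, Tet1 at -0.0372 and Tet3 at 0.123. With experimental day 0, the bodies of Dnmt1 and Tet1 were at -0.01995 and -0.0162, and without the windows of further starts Uhrf1 was at 0.2495. The cause of these reversals was not tested. Setting libraries to missing, including experimental day 0 and leaving out further starts were chosen after seeing the data.

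The lines share days, not replicate numbers. With the day as a replicate block, 1 promoter, 5 bodies and 0 cytosines were called (78747 cytosines at an unadjusted p under 0.05), the change was called at 0 promoters and 0 bodies, and 0 member cytosines were called. Deviations of same-day libraries correlated by -0.0316 to 0.0136 over 14635 promoters, so the days gave no sign of pairing. Depth is unknown, and regions with few listed cytosines, such as Dnmt3l start 1, limit what these values can show.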
